A study of Homo sapiens with 6 samples.

Results

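The 8 genes described here, HMGB1, HMGB2, HMGB3, HMGA1, HMGA2, HMGN1, HMGN2 and HMGN3, encode high mobility group (HMG) proteins of chromatin. They were chosen by gene symbol from a table of 61806 human genes, and their pseudogene copies were kept apart. RNA was sequenced from MG63, an established human osteosarcoma line of mesenchymal, bone-forming lineage. The shFTO group carried a stable hairpin against FTO, and the shNC group carried a control hairpin. FTO encodes a demethylase that removes N6-methyladenosine from RNA, and the comparison asks which transcripts depend on it. Each group held 3 biological replicates. The labels do not say whether the cells of a group came from 1 clone or from a pool, and they do not describe either hairpin further.

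HMG proteins are small, abundant, non-histone proteins that bind DNA or nucleosomes with little regard for sequence and make chromatin more open to other factors. HMGB proteins bend DNA with HMG boxes and carry an acidic tail. HMGA proteins hold AT-rich DNA through short AT-hook motifs, and HMGN proteins bind the nucleosome core and compete with linker histone H1. HMGA1 and HMGA2 are high in embryos and in many tumours, and HMGA2 is often rearranged in mesenchymal tumours.

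Expression was deposited as FPKM, which scales reads by exonic length and library total. The whole reads (or read pairs) behind the values could be recovered. They came to 106245, 94083 and 103462 in shFTO replicates 1, 2 and 3, and to 94349, 100992 and 93629 in shNC replicates 1, 2 and 3. These totals are far below those of a usual RNA-seq library, and whether reads were subset before FPKM were made is not known, so every read count, zero and limit here refers to the recovered reads. Per library, 3208 to 3435 genes were detected, and the median gene with reads had 4 over the 6 libraries. FTO was listed at 0 FPKM in all 6 libraries. A count of 0 allows up to 3 reads, or 0.462 FPKM over the shFTO group and 0.486 FPKM over the shNC group, so the knockdown could not be checked on FTO. Limits and intervals on reads cover counting error only. Of 12 mesenchymal and bone lineage markers 7 had reads, while SP7, ALPL, BGLAP, SPP1 and IBSP were at 0. Of other cell types, reads were found for 2 of 6 epithelial markers (7 reads in shFTO and 1 in shNC), for 0 of 6 blood cell markers and for 1 of 5 endothelial markers.

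HMGB1 held nearly all reads of the family. Of 4848 reads of the 8 genes, 4826 came from HMGB1, or 99.5%. HMGB1 made up 0.814% of all reads, was the 18th of all genes by reads and the 32nd by mean FPKM. The other 7 genes together had 22 reads over the 6 libraries. Among their 42 values, 27 were at 0, 12 were a single read and 3 were more than 1 read, with a maximum of 4. All 8 genes thus had at least 1 read somewhere, but of these HMGB1 alone had reads in every library. By mean FPKM, EIF4G2 ranked 1st of all genes, while the housekeeping genes GAPDH and ACTB ranked 334th and 542nd. Whether the recovered reads keep the make-up of MG63 RNA was not tested. Levels and shares of the members therefore describe these reads only.

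**Figure D1:**
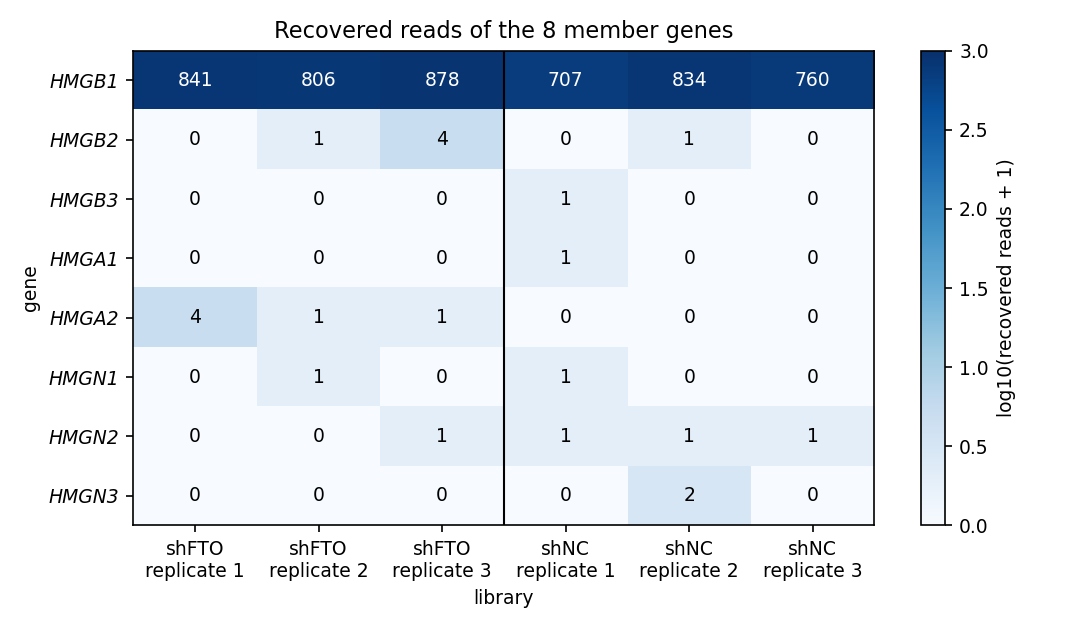
Recovered reads of each member gene (down the page) in each library (shFTO replicates 1 to 3 left of the line, shNC replicates 1 to 3 right of it), with shading on the scale log10(reads + 1). HMGB1 has 707 to 878 reads in every library, and no other gene passes 4.

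Per length, HMGB1 exceeded every other member in the recovered reads of every library. Its lowest value, 973.68 FPKM, was 49.9 times the highest value of any other member, the 19.53 FPKM of HMGN3 in shNC replicate 2. The mean over the 6 libraries was 1058 ± 51.5 FPKM for HMGB1 (SD, n = 6). It was followed by HMGB2 at 4.11 ± 6.24 FPKM, HMGN3 at 3.26 ± 7.97 FPKM and HMGN2 at 2.13 ± 1.66 FPKM. HMGA1, HMGN1, HMGA2 and HMGB3 came next, at 0.758, 0.702, 0.642 and 0.452 FPKM. From HMGB2 down, the ranges of neighbours in this order overlapped and each began at 0, so the order of these 7 genes is not resolved. Reads per length of HMGB1 over those of HMGB2 gave a ratio of 251, with an exact 95% interval from 115 to 684. The interval for HMGA2 ran from 723 to 4294, and the one for HMGN2 from 195 to 1836. The lowest bound over the 7 genes was 88.0, for HMGN3. These ratios divide by listed exonic length, which is 7696 bases for HMGB1 and 15070 for HMGA2. The GENCODE transcripts used below have 5485 bases for HMGB1 and 4473 for HMGA2, so ratios and bounds shift with the length chosen. They also count only reads assigned to each gene, and how reads shared with pseudogene copies were treated is not given.

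One read stands for very different FPKM in these genes, because their exonic lengths run from 1014 bases for HMGN3 to 15070 bases for HMGA2. A single HMGN3 read was worth 9.28 to 10.5 FPKM, and a single HMGA2 read 0.625 to 0.709 FPKM. The level of HMGN3 rests on 2 reads of 1 library.

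**Figure D2:**
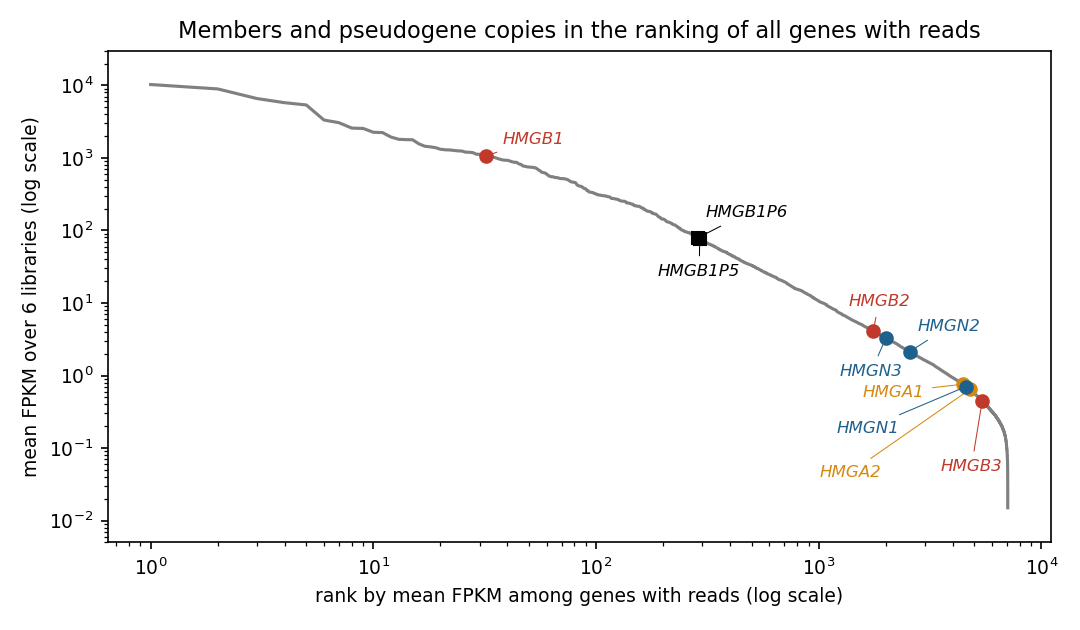
Mean FPKM over the 6 libraries (vertical axis, log scale) against rank by mean FPKM among the 7057 genes with reads (horizontal axis, log scale). The grey line is all genes, circles are the members coloured by family (HMGB red, HMGA orange, HMGN blue) and squares are 2 pseudogene copies of HMGB1. HMGB1 stands at rank 32 and the next member, HMGB2, at rank 1756.

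HMGB1 (ENSG00000189403, GRCh38 chromosome 13, 30456704 to 30617597, minus strand) encodes the most studied HMG-box protein. It bends DNA in the nucleus and acts as an alarm signal when dying or stimulated cells release it. Its level was 1028.54, 1113.16 and 1102.68 FPKM in shFTO replicates 1, 2 and 3, against 973.68, 1073.04 and 1054.72 FPKM in shNC replicates 1, 2 and 3. The groups overlapped, with the lowest value in shNC replicate 1 and the highest in shFTO replicate 2. The means were 1081 ± 46.1 FPKM in shFTO and 1034 ± 52.9 FPKM in shNC (SD, n = 3 each), a ratio of 1.05. In limma on log2(FPKM + 1) over 4932 genes, the log2 fold change was 0.07 (SE 0.08, adjusted p = 0.797). A quasi-Poisson fit to the recovered reads gave a log2 change of 0.06 with a 95% interval from -0.08 to 0.20. As a fold, the interval ran from 0.946 to 1.15. The 4 genes that overlap HMGB1 in the annotation were at 0 reads.

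The spread of HMGB1 was low among the abundant genes. Its coefficient of variation over the 6 libraries was 4.87%, the 20th lowest among the 150 genes that averaged 100 reads or more, whose median was 8.76%. Counting error by itself gives 3.37% to 3.76% at the reads of HMGB1, and more for genes with fewer reads. HMGB1 was 18th of all genes by reads, so its low spread and its high read number cannot be told apart here. Of the 149 others, the genes with the most similar profile over the 6 libraries were KCMF1, HNRNPA2B1 and CFL2. Likeness was taken as the root mean square difference between log2 FPKM profiles, each centred on its own mean. It was 0.0282 for KCMF1, a ubiquitin ligase gene, 0.0350 for HNRNPA2B1, a nuclear RNA-binding protein gene, and 0.0437 for CFL2, an actin-severing cofilin gene, against a median of 0.129. KCMF1 had 694 ± 21.3 FPKM in shFTO and 681 ± 30.6 FPKM in shNC. HNRNPA2B1 had 2657 ± 37.5 FPKM in shFTO and 2493 ± 74.8 FPKM in shNC. Every shFTO library of HNRNPA2B1 was above every shNC library, as in 2.9% of tested genes, and it was not called (limma adjusted p = 0.772). CFL2 had 1027 ± 74.9 FPKM in shFTO and 1002 ± 84.4 FPKM in shNC. All 4 genes were lowest in shNC replicate 1, which the choice by likeness to HMGB1 favours, so it is no separate result.

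The family is rich in processed pseudogenes, and these bear on how reads of its genes are assigned. The table listed 157 numbered copies of the 8 genes: 48 of HMGB1, 38 of HMGN2, 32 of HMGN1, 29 of HMGB3, 8 of HMGA1, 1 of HMGB2, 1 of HMGN3 and 0 of HMGA2. Only 2 of the 157 had reads, HMGB1P5 and HMGB1P6, both copies of HMGB1. The 38 copies of HMGN2 and the 32 of HMGN1 were at 0 in all 6 libraries. Reads of HMGB1 and of these 2 copies are uncertain, since near-identical sequences can share reads and how such reads were treated is not stated in the labels. The same limit holds for the other members with listed copies, above all HMGN2, HMGN1 and HMGB3. Their copies were not compared in sequence. Low levels of these members and reads lost in assignment cannot be told apart here.

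The sequences show how close the copies are. In GENCODE release 29 on GRCh38, HMGB1P5 (a transcribed processed pseudogene) matched the 645-base coding sequence of HMGB1, stop codon left out, at 636 of 639 aligned bases, or 99.5%. HMGB1P6 (a processed pseudogene) matched it at 633 of 642 aligned bases, or 98.6%. The coding sequences of HMGB2 and HMGB3 matched it at 77.4% and 74.0% of aligned bases. Counted from 1 at the A of the HMGB1 start codon, and with the HMGB1 base first, the substitutions of HMGB1P5 were A195G, C293T and T465C. HMGB1P6 shared A195G and T465C. Of the 50-base windows in the 642-base HMGB1P5 transcript, 71.0% occurred letter for letter in an HMGB1 transcript. For HMGB1P6 the share was 52.9%, against 0 of 1840 windows of HMGB2 and 0 of 3511 of HMGB3. The counted HMGB1P5 gene has 1210 exonic bases, and those outside this transcript were not compared. Coding bases 151 to 240 of HMGB1, are shown 5′ to 3′ with the bases aligned to them, because most differences of HMGB1P6 fall there. Capitals mark bases that differ from HMGB1, 1 in HMGB1P5, 7 in HMGB1P6, 21 in HMGB2 and 27 in HMGB3.
HMGB1: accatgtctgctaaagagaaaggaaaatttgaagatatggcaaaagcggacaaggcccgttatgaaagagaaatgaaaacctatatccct
HMGB1P5: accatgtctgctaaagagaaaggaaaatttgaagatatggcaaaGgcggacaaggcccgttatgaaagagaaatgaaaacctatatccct
HMGB1P6: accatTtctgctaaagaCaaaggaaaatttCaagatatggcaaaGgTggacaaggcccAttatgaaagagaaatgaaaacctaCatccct
HMGB2: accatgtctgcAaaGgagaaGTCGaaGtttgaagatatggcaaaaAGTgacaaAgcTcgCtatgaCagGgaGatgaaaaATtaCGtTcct
HMGB3: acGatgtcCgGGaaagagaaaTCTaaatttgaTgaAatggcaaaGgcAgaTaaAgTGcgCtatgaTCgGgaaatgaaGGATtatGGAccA

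HMGB1P5 (chromosome 3, 22381720 to 22382929, plus strand) had 46.67, 70.27 and 95.86 FPKM in shFTO replicates 1, 2 and 3, and 122.63, 73.65 and 52.96 FPKM in shNC replicates 1, 2 and 3. These stood for 26 reads in shFTO and 29 reads in shNC, and the groups overlapped throughout. The means were 70.9 ± 24.6 FPKM in shFTO and 83.1 ± 35.8 FPKM in shNC, with a limma log2 fold change of -0.20 (SE 0.31, adjusted p = 0.853). HMGB1P6 (chromosome 15, 71164770 to 71165415, minus strand) had 1, 1 and 11 reads in shFTO replicates 1, 2 and 3, and 9, 2 and 6 reads in shNC replicates 1, 2 and 3. It was high in shFTO replicate 3 and in shNC replicates 1 and 3 and low in the other 3 libraries, so its spread lay within the groups. The means were 65.2 ± 86.1 FPKM in shFTO and 92.5 ± 58.8 FPKM in shNC. The log2 change was -1.13 (SE 1.26) in limma, with an adjusted p of 0.779, and -0.46 (SE 0.70) in the fit to reads. Both copies took 0.825% to 3.15% of the reads of HMGB1 and copies in a library. With their reads added to HMGB1, the limma log2 fold change of HMGB1 was 0.06 (SE 0.08, adjusted p = 0.834).

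**Figure D3:**
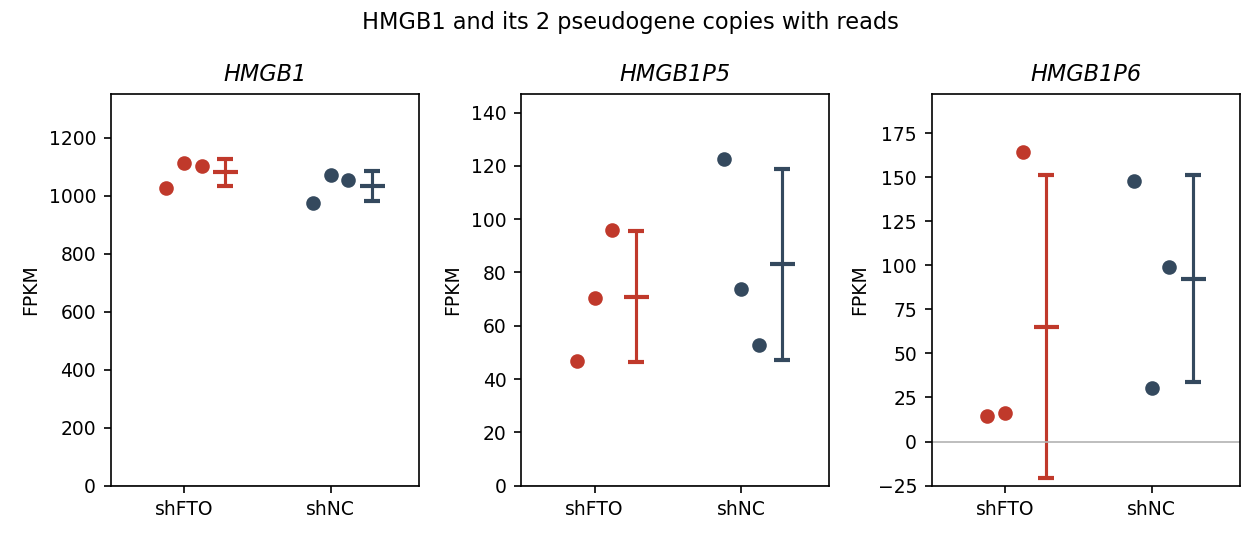
FPKM of HMGB1, HMGB1P5 and HMGB1P6 (vertical axes, each with its own scale) in shFTO and shNC. Points are libraries, replicates 1 to 3 from left to right, and the bars beside them are means ± SD (n = 3). The HMGB1 groups overlap, between 974 and 1113 FPKM, and for HMGB1P6 the SD of shFTO reaches below 0, with 1 read in each of 2 libraries.

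HMGB2 (chromosome 4, 173331376 to 173334432, minus strand), the close relative of HMGB1 that is typical of dividing cells, had 0, 4.43 and 16.1 FPKM in shFTO replicates 1, 2 and 3. It had 0, 4.12 and 0 FPKM in shNC replicates 1, 2 and 3. This is 5 reads against 1, with 4 of the 5 in shFTO replicate 3, and the groups overlapped. Per library total, the read ratio came to 4.76 (exact 95% interval 0.532 to 225), and the limma log2 fold change was 1.39 (SE 1.12, adjusted p = 0.772). HMGB3 (chromosome X, 150980509 to 150990771, plus strand), an HMG-box gene of stem and progenitor cells, had 0 reads in shFTO and 1 read in shNC, in replicate 1. The coding sequences of HMGB2 and HMGB3 were 72.7% identical.

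HMGA2 (ENSG00000149948, chromosome 12, 65824460 to 65966291, plus strand) was, besides HMGB1, the 1 member with reads in every shFTO library, and it had reads in 0 of the 3 shNC libraries. It had 2.5, 0.71 and 0.64 FPKM in shFTO replicates 1, 2 and 3, against 0, 0 and 0 FPKM in shNC replicates 1, 2 and 3. These values are 4, 1 and 1 reads, so 2 of the 3 shFTO libraries hold a single read. The exact 95% interval of the read ratio, for counting error only, began at 1.12 and had no upper end, and shFTO replicate 1 holds 4 of the 6 reads behind it. HMGA2 passed the filter through shFTO alone, and without shFTO replicate 1 it was not tested. HMGA2 was not called: the limma log2 fold change was 1.10 (SE 0.91, adjusted p = 0.772), and limma-voom on recovered reads gave 2.06 (SE 0.80) with an unadjusted p of 0.0101 and an adjusted p of 0.610. Among 273 genes with 6 reads in all, 21 (7.69%) had all 6 in shFTO and 20 (7.33%) had all 6 in shNC. Of the 4932 tested genes, 2.9% were higher in every shFTO library than in any shNC library, and 6.59% had groups that did not overlap in either direction. The antisense gene HMGA2-AS1 and the other 3 genes that overlap HMGA2 were at 0. HMGA1 (chromosome 6, 34236873 to 34246231, plus strand) had 0 reads in shFTO and 1 read in shNC, in replicate 1. The coding sequences of HMGA1 and HMGA2 matched at 66.3% of aligned bases.

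HMGN2 (chromosome 1, 26472440 to 26476642, plus strand), a nucleosome-binding gene expressed in most tissues, had 0, 0 and 3.03 FPKM in shFTO replicates 1, 2 and 3. It had 3.32, 3.1 and 3.35 FPKM in shNC replicates 1, 2 and 3. Each value above 0 is 1 read, so the step between 3.03 and 3.1 FPKM is a difference of library size alone. Although the groups do not overlap in FPKM, as in 3.69% of tested genes in this direction, the data are 1 read against 3. HMGN1 (chromosome 21, 39342315 to 39349647, minus strand), its relative on chromosome 21, had 1 read in shFTO, in replicate 2, and 1 read in shNC, in replicate 1. HMGN3 (chromosome 6, 79201245 to 79234738, minus strand), which binds nucleosomes and is known for roles in endocrine and neural cells, had 0 reads in shFTO and 2 reads in shNC, both in replicate 2. Coding sequences matched at 74.4% between HMGN1 and HMGN2 and at 71.5% between HMGN2 and HMGN3. No fold is given for HMGB3, HMGA1 and the HMGN genes, where neither group passed 3 reads.

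Over the family, 6 of the 8 genes were tested, all but HMGB3 and HMGN1, whose means stayed under 1 FPKM in both groups. HMGA2 entered only through shFTO, and HMGA1 and HMGN3 only through shNC, the group that held all their reads. With limma, 0 rose and 0 fell at an adjusted p under 0.05, where 0.0406% of all 4932 genes were called. At an unadjusted p under 0.05 limma had 0 of the 6 and 3.85% of all genes, and limma-voom had 1 of the 6, HMGA2, and 5.39% of all genes. At an adjusted p under 0.05, limma-voom called 0 of the 6 and 0.101% of all genes. The quasi-Poisson fit held only HMGB1 of the 8 genes. It made 0 calls among 1021 genes, and 50 of them had an unadjusted p under 0.05. Summed reads of the 8 genes were 837 ± 35.8 of 100000 in shFTO and 799 ± 40.0 in shNC, a ratio of 1.05 that HMGB1 sets. Without HMGB1 they were 4.25 ± 1.37 of 100000 in shFTO and 3.09 ± 1.76 in shNC, from 13 and 9 reads, and the groups overlapped. At this depth even the 5 reads against 1 of HMGB2 were not a detectable difference. In these cell populations, fewer cells that express a gene and less RNA per cell cannot be told apart.

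Other genes named for the HMG families also had few reads. HMGB4, HMGN5 and HMG20B were at 0, and HMGXB3 had 2 reads in shFTO and 5 in shNC. HMGXB4, an HMG-box gene linked to WNT signalling, had 7 reads in shFTO (5 in replicate 3) and 3 in shNC, and the groups overlapped. Its limma log2 fold change was 0.78 (SE 1.05, adjusted p = 0.808).

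Among 26 other HMG-box genes, 15 had reads and all 15 entered the limma fit, where 0 were called in either direction. The estimate was above 0 for 9 and below 0 for 6, with a median log2 fold change of 0.06 against 0.0040 over all tested genes. SMARCE1, the HMG-box subunit of the SWI/SNF chromatin remodeller, had the most reads. It stood at 36.18, 42.58 and 46.57 FPKM in shFTO replicates 1, 2 and 3, against 52.79, 50.93 and 51.47 FPKM in shNC replicates 1, 2 and 3. Every shFTO library was below every shNC library, as in 3.69% of tested genes. The limma log2 fold change was -0.31 (SE 0.30, adjusted p = 0.772), and the interval in the fit to reads ran from -0.66 to 0.04. SOX4, a transcription factor gene of progenitor and tumour cells, had 109 ± 6.72 FPKM in shFTO and 121 ± 33.3 FPKM in shNC. PBRM1, which encodes another remodeller subunit, had 13.6 ± 3.50 FPKM in shFTO and 19.3 ± 2.37 FPKM in shNC. KMT2C, a histone H3 methyltransferase gene, had 3.14 ± 0.895 FPKM in shFTO and 3.34 ± 1.56 FPKM in shNC. Chosen after its values were seen, HBP1, a repressor of cell cycle genes, had 8, 7 and 7 reads in shFTO replicates 1, 2 and 3 and 1, 6 and 0 reads in shNC replicates 1, 2 and 3. Its limma log2 fold change was 2.04 (SE 0.83, unadjusted p = 0.0190, adjusted p = 0.772), and HBP1 and CIC were the 2 of 15 whose shFTO libraries all stood above the shNC libraries, as in 2.9% of all tested genes. TFAM, which packages mitochondrial DNA, was at 0.

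**Figure D4:**
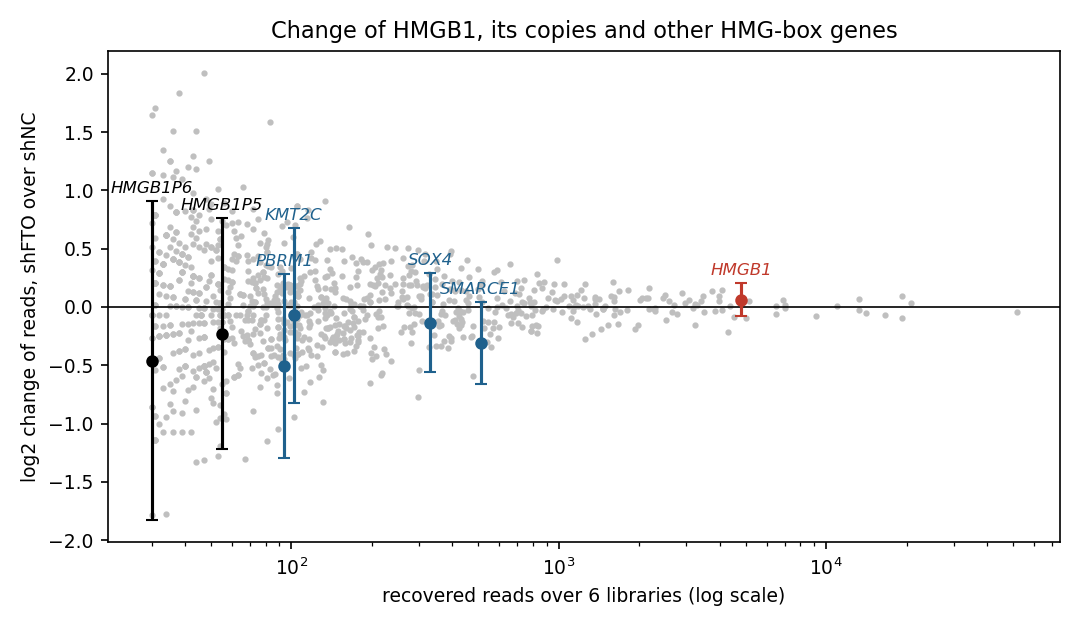
Log2 change of reads, shFTO over shNC, in the quasi-Poisson fit (vertical axis) against recovered reads over the 6 libraries (horizontal axis, log scale). Grey points are all 1021 genes with at least 30 reads, and error bars are 95% intervals for HMGB1 (red), its copies (black) and the 4 other HMG-box genes with the most reads (blue). The interval of HMGB1, from -0.08 to 0.20, is the narrowest shown, and those of the 7 marked genes all include 0.

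Genes that work with the HMG proteins gave 0 calls as well. Limma called only 0.0406% of all 4932 tested genes, so 0 calls in a short list is no result about that list. Of 16 genes linked to HMGA1 or HMGA2 in earlier work, 11 were tested and 0 called, with estimates above 0 for 7 and below 0 for 4 and a median log2 fold change of 0.23. TWIST1, a mesenchymal transcription factor gene, had 62.1 ± 22.8 FPKM in shFTO and 53.3 ± 19.2 FPKM in shNC. NPM1, which encodes a nucleolar histone chaperone, had 14.4 ± 3.73 FPKM in shFTO and 10.8 ± 4.95 FPKM in shNC. DICER1, the processing enzyme of microRNAs such as let-7 that restrain HMGA2, had 5.64 ± 2.77 FPKM in shFTO and 3.43 ± 1.91 FPKM in shNC (limma adjusted p = 0.836). PLAG1, a transcription factor gene known as an HMGA2 target, had 12.1 ± 7.10 FPKM in shFTO and 11.8 ± 5.51 FPKM in shNC. LIN28A and LIN28B, which block let-7, were at 0. Of 24 genes for the release, receptors and partners of HMGB1, 11 were tested and 0 called, with estimates above 0 for 5 and below 0 for 6 and a median log2 fold change of -0.02. SET, which encodes a histone chaperone found in a complex with HMGB2, had 690 ± 42.7 FPKM in shFTO and 746 ± 41.8 FPKM in shNC (limma adjusted p = 0.772). PRDX1, a peroxidase gene, had 59.5 ± 22.7 FPKM in shFTO and 41.1 ± 15.7 FPKM in shNC (limma adjusted p = 0.772). XPO1, the nuclear exporter of HMGB1, had 1.49 ± 0.551 FPKM in shFTO and 2.47 ± 0.236 FPKM in shNC, from 11 and 17 reads (limma adjusted p = 0.897). Every shFTO library of XPO1 was below every shNC library, as in 3.69% of tested genes. EP300, an acetyltransferase gene, had 4 reads in shFTO and 7 in shNC. The receptor genes AGER, TLR2 and HAVCR2 were at 0.

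Cell cycle genes, with which HMGB2 is usually co-expressed, had 260 ± 10.9 of 100000 reads in shFTO and 262 ± 11.6 in shNC over 20 genes. H2AZ1, a histone variant gene, held 532 of their 791 reads in shFTO and 484 of 757 in shNC. Its level was 768 ± 101 FPKM in shFTO and 739 ± 23.8 FPKM in shNC. TUBA1B, a tubulin gene, held 210 reads in shFTO and 222 in shNC, at 194 ± 17.3 FPKM in shFTO and 215 ± 20.9 FPKM in shNC. The sum over the list thus reflects mainly H2AZ1 and TUBA1B and says little of the other genes. MCM4 had 7 reads in shFTO and 14 in shNC, and MCM3, another replication helicase gene, had 8 in shFTO and 5 in shNC. Of the 15 tested, 0 were called by limma, and the median log2 fold change was 0.05. The mesenchymal and bone lineage list had 85.8 ± 6.27 of 100000 reads in shFTO and 77.3 ± 10.1 in shNC, and 0 of its 7 tested genes were called. COL1A1, a collagen gene, had 30.7 ± 9.62 FPKM in shFTO and 21.6 ± 5.30 FPKM in shNC. SPARC, a bone matrix protein gene, had 44.6 ± 17.8 FPKM in shFTO and 43.9 ± 4.99 FPKM in shNC. VIM, an intermediate filament gene, had 22.1 ± 8.38 FPKM in shFTO and 33.3 ± 4.71 FPKM in shNC. The epithelial list had 0 to 3.76 of 100000 reads in shFTO and 0 to 1.07 in shNC, with EPCAM and CDH1 at 0. The whole list held 7 reads in shFTO and 1 in shNC. Only 1 of its genes was tested, with a limma log2 fold change of 2.25. Its unadjusted p was under 0.05, as in 3.85% of all tested genes, and it was not called.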

How the data were processed

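Poly(A) RNA of the 6 libraries was enriched from TRIzol extracts, per the labels' protocols. The tools named are, per the submitters' processing notes, DESeq2 1.50.2, StringTie 1.3.3b, HTSeq 0.6.1, HISAT2 2.2.1 and FastQC 0.10.1, on GRCh38. Sequencing was strand-specific on an Illumina NovaSeq, per the series' design text. Tool order, strand setting in counting and handling of multiply mapped reads: not given in the sources used here. Per gene, the authors deposited FPKM with 2 decimals. FPKM are relative to a library's total.

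Columns named sh with a number were taken as shFTO replicates, and those named NC as shNC replicates. For each library, totals from 20000 to 200000 were tried to turn FPKM back into reads, and the chosen ones left 100% of non-zero values within 0.05 of a whole number. The moderated, trended and robust fit of limma 3.58.1 (R 4.3.3) used log2(FPKM + 1). It held the 4932 genes whose mean reached 1 FPKM in shFTO or in shNC, with Benjamini-Hochberg adjustment over all of them. Fold changes on this scale understate changes of low genes. A quasi-Poisson fit with moderated dispersion (median 1.79) was run on genes with at least 30 recovered reads, and limma-voom on recovered reads. Intervals of read ratios are exact (SciPy 1.17.1). Sequences were aligned with Biopython 1.88. The fits were tested on simulated data, with changes set in genes whose reads lay between those of HMGB1 and those of the other members. That test therefore does not cover the members.

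The members and the 10 other gene lists were chosen with earlier results of these data known, and some list results are not reported here. Members were always named. Other list genes were named by reads, up to 4 per list with at least 10 reads over the 6 libraries. Copies were named by reads, up to 3 per member, and 3 genes by likeness of profile to HMGB1. HBP1, CIC, HMGXB3, EIF4G2, GAPDH, ACTB and genes at 0 were named after their values were seen. The p-values measure differences only against the spread among these libraries. Between any 2 libraries, reads over 705 genes differed by more than sampling noise, with a chi-square per degree of freedom from 1.72 to 2.24. Pairs within a group ran from 1.78 to 2.08, inside that range. No library was thus treated as a duplicate of another. Repeat libraries of the same RNA can also differ in this way, so these values cannot show separate cultures.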

Additional observations from a re-analysis of the deposited data

How the results depend on the processing

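For the 6 tested members, 0 were called under any alternative that gave a value, at adjusted p values from 0.610 to 0.958 in limma, limma-voom or the quasi-Poisson fit. The alternatives were a pseudocount of 0.1, no filter, median-of-ratios and upper-quartile scaling, limma-voom, a replicate block and each library left out in turn. HMGB1 also had values with at least 10 reads per library, in the quasi-Poisson fit and with pseudogene copies added, and the other 5 had none there. The directions of HMGA2, HMGA1 and HMGN3 could not turn, since 1 group held all their reads. HMGB1 ran from 0.02 without shNC replicate 1 to 0.10 without shFTO replicate 1. HMGB2 ran from 0.44 without shFTO replicate 3 to 2.48 without shFTO replicate 1. HMGA2 ran from 1.08 with median-of-ratios scaling to 3.54 with a pseudocount of 0.1, and had no value without shFTO replicate 1. HMGA1 had none without shNC replicate 1, and HMGN3 none without shNC replicate 2, the only libraries with their reads. The ratio of summed reads was 1.38 without HMGB1, which is the member with the most reads, and ran from 1.02 to 1.07 with 1 library left out.

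Over all genes, limma called 2, and 7 with a pseudocount of 0.1, 9 with no filter, 0 with at least 10 reads per library (31 at an unadjusted p under 0.05) and 5 with limma-voom. The quasi-Poisson fit called 0. With 1 library left out, limma called 2 to 9, with 8 without shFTO replicate 1, 9 without shNC replicate 2 and 7 without shNC replicate 3. With the replicate block it called 17, of which 0 were members. The labels do not say whether replicate numbers pair the libraries. The deviations of same-numbered libraries from their group means correlated at -0.0029, 0.039 and -0.012 over 705 genes. Many of these genes have few reads, so counting error could hide a pairing, and these values cannot decide it. The cause of the differences in the number of genes called was not tested. Few reads limit what can be said of 7 of the 8 members, with 22 among them.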
